A study of Mus musculus with 40 samples.

Results

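The acyl-CoA synthetases of fatty acids were followed in the liver of CD-1 mice dosed with GenX. The group held 9 genes of 21448 with a probe, chosen by name: Acsl1, Acsl3, Acsl4, Acsl5 and Acsl6 of the long-chain family, Acsm1, Acsm3 and Acsm5 of the medium-chain family, and Acss2, which activates acetate. GenX is the trade name of a short, branched perfluoroalkyl ether acid, given here as its ammonium salt. All mice were wild-type Crl:CD1(ICR) animals, housed individually and dosed by oral gavage for 90 days with deionized water alone (0 mg/kg, the controls) or with GenX at a low (0.1 mg/kg per day), a middle (0.5) or a high dose (5). Each dose had 5 males and 5 females, 40 mice in all, and their age was not given in the sources used here. One section of formalin-fixed, paraffin-embedded liver was scraped from its slide for each mouse, so each library was bulk liver from 1 animal. Transcripts were counted with TempO-Seq, in which detector oligonucleotides are ligated on the RNA of each gene and the ligated products are sequenced, so that every value belongs to 1 probe.

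A fatty acid cannot be burned, esterified or elongated until a synthetase joins it to coenzyme A at the cost of ATP. In hepatocytes the long-chain enzymes sit on the outer mitochondrial membrane, the endoplasmic reticulum and other membranes, and Acsl1 carries much of the long-chain activity of this tissue. The Acsm enzymes work inside mitochondria on medium-chain fatty acids and on aromatic acids such as benzoate, which are then joined to glycine, while Acss2 makes acetyl-CoA from acetate in the cytosol and nucleus. Acsl1 is a textbook target of the fatty acid receptor PPAR alpha, and Acss2 is a target of the sterol-regulated factors of the SREBP family.

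The 39 libraries used held 10341341 to 15562253 reads over 30146 probes, and the library of female 355 at 0.5 mg/kg, with 6711981 reads, was left out (it had no reads of Acsm1, Acsm3, Acsm5 or Acss2), which leaves 4 females in that group. The counts of a library piled up at multiples of a first peak of 20.8 to 49.8 reads, read here as the reads that 1 counted molecule gave. By that measure the libraries held 287244 to 656743 molecules. The males at 5 mg/kg held 483008 to 656743 and the male controls 287244 to 369995, so these groups did not overlap in depth. In females the control libraries held 307766 to 521441 molecules and those at 5 mg/kg 306232 to 339820. The hepatocyte markers Alb, Ttr, Apob and Cps1 had reads in all 39 mice, Alb at 2609 to 5499 CPM (reads scaled to a common library size). In bulk liver, fewer cells of a type and less RNA per cell cannot be told apart. Nothing in the labels pairs mice across groups.

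The members differed widely in how well they were counted. The first, most counted probe of Acsl1 stood on 462 to 3225 molecules per library and that of Acsl5 on 23.6 to 349. Those of Acsm1, Acsm5 and Acsm3 stood on medians of 22.7, 28.8 and 16.1 molecules. Acss2 and Acsl3 had medians of 3.08 and 1.9, and Acsl4 and Acsl6 had reads in 4 of 39 mice each. All 9 genes had a probe that passed the filter on low counts, so all 9 were tested. Levels below are CPM scaled by library size and differences are log2 fold changes with their standard error (SE), fitted over all 17877 probes tested and called at an adjusted p under 0.1. Probes capture their transcripts unequally, and levels are therefore compared between mice and not between genes.

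On the mouse assembly mm10 (GRCm38), RefSeq places Acsl1 at chr8:46471037-46536051 and Acsl5 at chr19:55251861-55296628. The 3 medium-chain genes are neighbours on chromosome 7. Acsm5 lies at chr7:119526131-119543360, Acsm1 at chr7:119617757-119662515 and Acsm3 at chr7:119760883-119784896. The gap from Acsm5 to Acsm1 is 74396 bases and that from Acsm1 to Acsm3 is 98367 bases. Acss2 lies at chr2:155518043-155562743, Acsl3 at chr1:78657825-78707743, Acsl6 at chr11:54303805-54364756 and Acsl4 on the minus strand at chrX:142317993-142390802. The bases before a RefSeq start site are shown for the 3 genes whose levels changed with dose, and for Acsl1 both RefSeq start windows are given. Which start is used by the transcripts that each Acsl1 probe reads is not known here. All are on the plus strand, from RefSeq on GRCm38. Capitals mark a nuclear receptor half-site, AGGTCA or its reverse complement TGACCT, which is not particular to PPAR. The windows of Acsl5 and Acsm1 and the second of Acsl1 lie inside a longer annotated transcript. The start used for Acsl5 lies 1508 bases into the gene as placed above, and that for Acsm1 55 bases into it, at 119617812. The Acsm1 sequence is therefore printed only up to the base before the gene's outer start.
Acsl1, first start, chr8:46470787-46471036: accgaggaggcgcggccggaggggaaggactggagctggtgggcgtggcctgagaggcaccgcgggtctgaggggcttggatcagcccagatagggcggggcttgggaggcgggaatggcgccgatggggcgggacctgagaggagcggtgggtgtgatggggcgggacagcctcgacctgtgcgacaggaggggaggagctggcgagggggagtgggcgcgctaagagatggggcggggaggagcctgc
Acsl1, second start, chr8:46490716-46490965: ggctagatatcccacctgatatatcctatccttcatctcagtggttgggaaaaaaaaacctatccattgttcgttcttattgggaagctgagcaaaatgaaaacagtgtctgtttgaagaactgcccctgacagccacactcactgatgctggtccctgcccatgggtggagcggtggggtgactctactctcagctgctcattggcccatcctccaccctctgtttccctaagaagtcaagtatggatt
Acsl5, chr19:55253119-55253368: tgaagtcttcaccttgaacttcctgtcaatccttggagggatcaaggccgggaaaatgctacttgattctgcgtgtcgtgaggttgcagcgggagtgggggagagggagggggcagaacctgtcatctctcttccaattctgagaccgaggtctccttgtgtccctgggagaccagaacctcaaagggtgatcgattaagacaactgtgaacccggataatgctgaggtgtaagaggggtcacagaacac
Acsm1, chr7:119617562-119617756: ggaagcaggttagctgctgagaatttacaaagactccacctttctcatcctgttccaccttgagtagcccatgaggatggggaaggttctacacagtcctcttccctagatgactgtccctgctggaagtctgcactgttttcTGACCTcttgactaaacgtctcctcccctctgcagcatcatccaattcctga

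The first window of Acsl1 is rich in G and C (72% of its bases) and the second is not (48.4%). The half-site AGGTCA, searched on both strands, lay in 2 of the 12 RefSeq start windows matched to the 9 members and in 4607 of 32851 windows of the same length over all genes (14%). In Acsm1 it reads TGACCT, 107 to 102 bases before the start at 119617812. The other window is that of the first start of Acsl6, with TGACCT 189 to 184 and 167 to 162 bases before that start. A pair of half-sites 1 base apart, AGGTCANAGGTCA, lay in none of the 12 windows and in 0.0335% of all windows, and the looser AGGNCANAGGNCA in none of the 12 and in 0.338%. These matches describe letters in a short window and say nothing of binding there.

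Acsl1, the main long-chain synthetase of liver, rose with dose in both sexes. In control males its first probe stood at 2043, 2120.2, 2354, 2005 and 1776 CPM. At the middle dose the males stood at 4873, 3679, 4482.5, 3983 and 3560.4 CPM and at 5 mg/kg at 5833, 4798, 5442, 5002 and 4179 CPM. All 10 males of these doses lay above all 5 controls, and the highest dose overlapped with the middle one. The change was 1.0 ± 0.11 (log2, SE; n = 5 and 5; adjusted p = 8.97e-09) at 0.5 mg/kg and 1.29 ± 0.11 (adjusted p = 9.98e-13) at 5 mg/kg, where the fold was 2.45. From 0.5 to 5 mg/kg the further difference in males was 0.30 ± 0.11, with a 95% interval from 0.08 to 0.52, and was not called over all probes (adjusted p = 0.226).

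At the lowest dose the males stood at 2426, 2599, 2480.3, 2468 and 2495 CPM. These 5 values were close together and lay above every control, by 0.28 ± 0.11 on the log2 scale, and the difference was not called over all probes (adjusted p = 0.35). The share of all probes that kept these 2 groups apart was not counted. A second probe of Acsl1, described below, differed by −0.05 ± 0.17 in the same mice, with overlapping values.

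In females the rise came at the same doses and went on from the middle to the highest. Control females stood at 1413, 1199, 1605, 1439 and 1537 CPM. The 4 females at 0.5 mg/kg stood at 2148, 1996, 2656 and 2299.9 CPM and the 5 at 5 mg/kg at 4107, 3195, 3380.4, 3418 and 4091 CPM. The 3 groups did not overlap. The changes were 0.66 ± 0.12 (adjusted p = 0.00105) and 1.34 ± 0.11 (adjusted p = 5.34e-13, fold 2.53), and the step between these doses was 0.68 ± 0.12 (adjusted p = 0.000242). Whether this step differed between the sexes was not tested. Females at 0.1 mg/kg, at 1784, 1355, 1578, 1661 and 1417 CPM, overlapped with their controls (0.12 ± 0.11, adjusted p = 1). With the shallow library of mouse 355 put back, the change at the middle dose was 0.38 and was not called (adjusted p = 0.696).

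**Figure D1:**
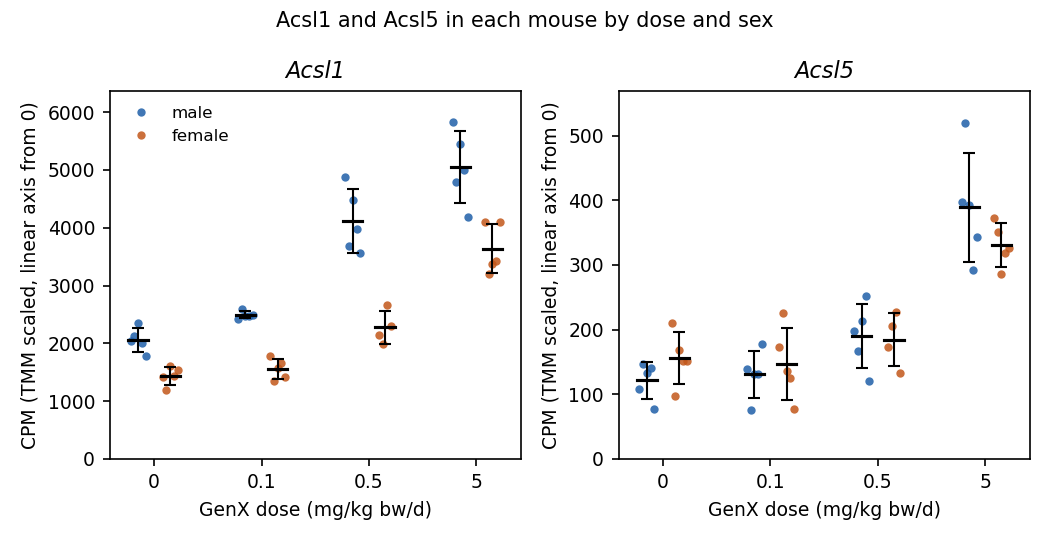
Levels of Acsl1 (first probe) and Acsl5 in CPM for each of the 39 mice by GenX dose in mg/kg per day, males and females apart, with each point 1 mouse and bars for the group mean and SD. At 5 mg/kg the male values of Acsl1 lie between 4179 and 5833 CPM and the control values between 1776 and 2354 CPM.

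Control females had less Acsl1 than control males, by −0.52 ± 0.11 on the log2 scale (adjusted p = 0.00244), with no overlap, and this call too was lost with mouse 355 put back (−0.51, adjusted p = 0.307). For the highest dose the male change minus the female change was −0.04 ± 0.16, with a 95% interval from −0.37 to 0.29 (adjusted p = 1). At the middle dose this difference was 0.34 and was not called (adjusted p = 0.44), and at 0.1 mg/kg it was 0.16 (adjusted p = 1).

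A second probe of Acsl1 was counted on 34 to 253 molecules per library and gave another picture in males. Control males stood at 227, 317, 362, 299.5 and 217 CPM and males at 5 mg/kg at 448, 319, 488, 364 and 317 CPM. These groups overlapped, and the difference of 0.45 ± 0.17 was not called (adjusted p = 0.123), nor was that of 0.37 at 0.5 mg/kg (adjusted p = 0.259). In females the second probe went from 102, 112, 127, 112 and 121 CPM in the controls to 321, 248, 222, 294 and 335 CPM at 5 mg/kg, with no overlap. That was 1.31 ± 0.17 (adjusted p = 2.79e-07), beside 1.34 on the first probe, and at the middle dose it was 0.59 (adjusted p = 0.331). For the second probe the male change at 5 mg/kg was smaller than the female one, by −0.86 ± 0.24 (adjusted p = 0.0876). Control females stood below control males by −1.31 ± 0.17 on it (adjusted p = 4.45e-07).

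Within each mouse the second probe can be set against the first, which removes the depth of the library. In control males the second probe gave 11.1, 14.9, 15.4, 14.9 and 12.2% of the reads of the first. Males at 0.5 mg/kg gave 10.2, 8.15, 7.48, 9.2 and 9.59% and at 5 mg/kg 7.68, 6.64, 8.97, 7.28 and 7.59%. All 10 lay below all 5 controls. The log2 differences were −0.62 and −0.84, each with p = 0.00794 by a two-sided exact permutation test, the smallest that 5 against 5 mice allow (adjusted over 7 comparisons of this ratio, 0.0185). This ratio restates the difference between the probes given above, from the same counts, and is no separate support for it. It was not among the planned tests and was taken for Acsl1 alone. The adjustment does not cover that choice, and how often such a ratio moves in other genes was not tested. Control females gave 7.2, 9.32, 7.9, 7.76 and 7.88%, below all control males (−0.77, exact permutation p = 0.00794, adjusted 0.0185) and at the level of the dosed males. Females at 5 mg/kg gave 7.81, 7.77, 6.58, 8.61 and 8.18%, which overlapped with their controls (−0.04, exact permutation p = 0.659). The ratio at 0.1 mg/kg was 8.54 to 13.1% in males (exact permutation p = 0.0873, adjusted 0.153) and 5.58 to 8.09% in females (p = 0.111, adjusted 0.155). Females at 0.5 mg/kg were at 5.91 to 10.4% (exact permutation p = 0.627). Which transcripts each probe reads is not given in the sources used here.

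**Figure D2:**
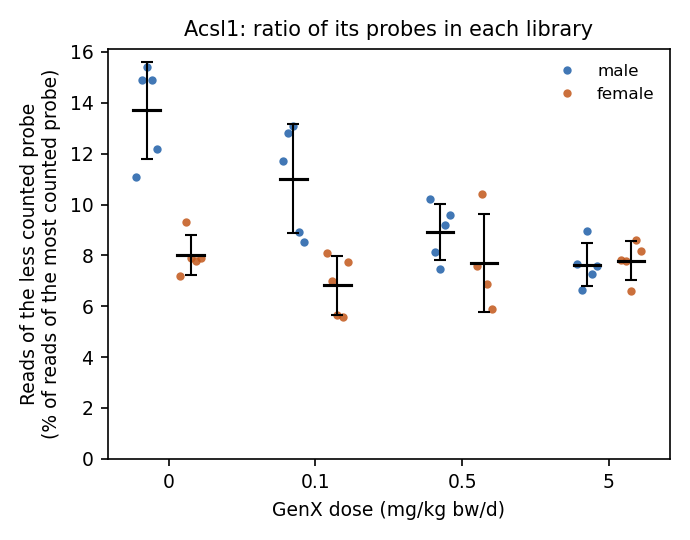
Reads of the second Acsl1 probe as a percent of those of the first in each mouse, by dose in mg/kg per day and sex, with a point for each mouse and bars for the group mean and SD. The male controls lie between 11.1 and 15.4%, while the males at 5 mg/kg and the females at 5 mg/kg lie between 6.58 and 8.97%.

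Acsl5, a long-chain synthetase best known from gut and liver, also rose, and mainly at the highest dose. Control males stood at 108, 147, 133, 139.7 and 77.7 CPM and males at 5 mg/kg at 396, 519.5, 392, 292 and 344 CPM. Control females stood at 209.6, 97.7, 168, 152 and 151 CPM and females at 5 mg/kg at 373, 351, 285, 318 and 326 CPM. In both sexes all 5 dosed mice lay above all 5 controls. Males changed by 1.68 ± 0.23 (adjusted p = 2.37e-07, fold 3.21), females by 1.09 ± 0.22 (adjusted p = 0.00115, fold 2.12). The male change minus the female change was 0.59 ± 0.31, with a 95% interval from −0.04 to 1.22, and was not called (adjusted p = 0.429).

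For Acsl5 males at 0.5 mg/kg stood at 198, 167, 213, 252 and 121 CPM. Of these, 4 of 5 lay above all controls, and the difference of 0.65 ± 0.22 was not called (adjusted p = 0.158). Females at this dose, at 172, 205, 228 and 132 CPM, overlapped with their controls (0.24, adjusted p = 1). The male step from 0.5 to 5 mg/kg was 1.03 ± 0.22 (adjusted p = 0.00342), the female step 0.84 ± 0.24 (adjusted p = 0.0809). The female step lost its call in 7 of 9 fits that left out 1 mouse, all but those without mouse 353 or mouse 453, with adjusted p from 0.062 to 0.359 over the 9. At 0.1 mg/kg Acsl5 ran from 74.9 to 177 CPM in males (0.11, adjusted p = 1) and from 76.6 to 225 CPM in females (−0.08), within or around the range of the controls.

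The other 3 long-chain genes were at or near the limit of counting. Acsl3, a synthetase of the endoplasmic reticulum and lipid droplets, had reads in 31 of 39 mice, at 0 to 19.5 CPM. Control males stood at 3.26, 0, 3.59, 0 and 10.2 CPM and males at 5 mg/kg at 3.65, 19.5, 4.2, 6.74 and 9.22 CPM, which overlapped. The difference was 1.34 ± 1.41 (adjusted p = 0.834) with a 95% interval from −1.54 to 4.22, so a difference was not detectable at this depth.

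Acsl4, which prefers arachidonic acid, had 125 reads in 39 libraries, from mice 203, 303, 405 and 255 with 32, 24, 21 and 48 reads. The reads of mouse 203 come to 0.788 of a molecule. Acsl6, a synthetase best known from brain, had 161 reads, from mice 105, 201, 302 and 305 with 29, 37, 53 and 42 reads. Each of these 8 libraries thus held about 1 molecule and the other libraries none, so no fold is given for either gene. A second probe of Acsl3 and 2 further probes of Acsl6 had no reads in the 39 libraries.

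Acsm1, a mitochondrial medium-chain synthetase, was the member that fell. Control males stood at 60, 81.2, 64.6, 87.3 and 74.1 CPM and males at 5 mg/kg at 23.6, 33.6, 43.9, 32.8 and 36.1 CPM. Every dosed male lay below every control. The change was −1.11 ± 0.21 (adjusted p = 0.000127), a level 2.16-fold lower than in the controls. Males at 0.5 mg/kg stood at 82.8, 42.5, 58.3, 77.1 and 51.4 CPM (−0.23, adjusted p = 0.81), and the step from there to 5 mg/kg was −0.88 ± 0.21 (adjusted p = 0.00913) with overlapping values. The male change at 5 mg/kg was no longer called when the shallow library of mouse 355 was put back, with the size hardly moved (−1.10, adjusted p = 0.216), nor was the step (−0.87, adjusted p = 0.516).

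Females were less clear for Acsm1. Controls stood at 81.7, 56, 65.1, 71.4 and 83.7 CPM and females at 5 mg/kg at 54.2, 52.7, 71.5, 34.1 and 56.1 CPM. These values overlapped, and the difference of −0.41 ± 0.21 was not called (adjusted p = 0.276, 95% interval from −0.84 to 0.02). The interval is built from rounded values and is slightly wider than the edgeR test, whose unadjusted p was 0.0493. The male change minus the female change was −0.70 ± 0.29 and was not called by edgeR (adjusted p = 0.287).

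Markers of the zones of the liver lobule moved in these males too. All 5 periportal markers were lower in males at 5 mg/kg, where their sum ran from 1062 to 1761 CPM against 2227 to 3771 CPM in male controls, and 3 of 5 were lower in females. Of the pericentral markers 3 of 5 were lower in males, with a sum of 2899 to 4314 CPM against 5159 to 7957 CPM, and 2 of 5 in females. Of 6 listed hepatocyte markers 4 had a probe, and of these 2 were lower in males and 1 in females. Of the 5 endothelial markers 1 was lower in males. Of the 6 stellate cell markers 2 were higher in males, with a sum of 157 to 194 CPM against 63.7 to 129 CPM. No tested marker of Kupffer cells, bile duct cells, lymphocytes or erythroid cells was called in either sex at 5 mg/kg. Lower and higher here mean called. Of all probes tested, 3.45% were called lower and 4.83% higher in males at this dose, and 1.83% each way in females. The part of these marker shifts in the change of Acsm1 was not tested.

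Acsm3 and Acsm5, the neighbours of Acsm1, were not called by edgeR against the controls at any dose. Acsm5 stood at 99.9, 106, 54.2, 91.7 and 82.4 CPM in control males and at 39.5, 56, 62.7, 70 and 77.8 CPM in males at 5 mg/kg. In females it stood at 49.9, 54.8, 67.5, 61.8 and 78.3 CPM in controls and at 79, 70.8, 76.5, 80.8 and 74.4 CPM at 5 mg/kg. Groups overlapped in both sexes, and the male difference was −0.50 ± 0.21 (adjusted p = 0.176), the female one 0.29 (adjusted p = 0.707). With DESeq2 the male difference was −0.58 and was called (adjusted p = 0.0664), as it was with estimated molecules (−0.57, adjusted p = 0.0298). The male minus the female change was −0.79 ± 0.30, with a 95% interval from −1.40 to −0.18, and was not called by edgeR over all probes (adjusted p = 0.216), while DESeq2 called it (−0.89, adjusted p = 0.0994). A further probe of Acsm5 had 17 reads in all and another 244 reads in 31 mice, too few to serve as a check.

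Acsm3 stood at 31.3, 66.8, 46.7, 50.2 and 50 CPM in control males and at 40.6, 48, 32.6, 25.8 and 30.9 CPM in males at 5 mg/kg. Control females stood at 37.3, 32.7, 59.4, 51.7 and 37.6 CPM and females at 5 mg/kg at 60.1, 36.3, 59.8, 72.9 and 54.3 CPM. Both pairs overlapped. The male difference was −0.46 ± 0.26 (adjusted p = 0.313; called with estimated molecules, −0.53, adjusted p = 0.0912), the female one 0.37 ± 0.26 (adjusted p = 0.625), and the male minus the female change was −0.83 ± 0.36 (adjusted p = 0.328, 95% interval from −1.56 to −0.10). For the 3 medium-chain members the male change at 5 mg/kg was thus lower than the female one. These differences were called by edgeR for none of the 3 members and by DESeq2 for Acsm5. Acsm2, of the same family but not a member, is given with the other synthetases below. With estimated molecules Acsm1 (−0.80, adjusted p = 0.0938) and Acsm5 (−0.88, adjusted p = 0.0766) were called.

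**Figure D3:**
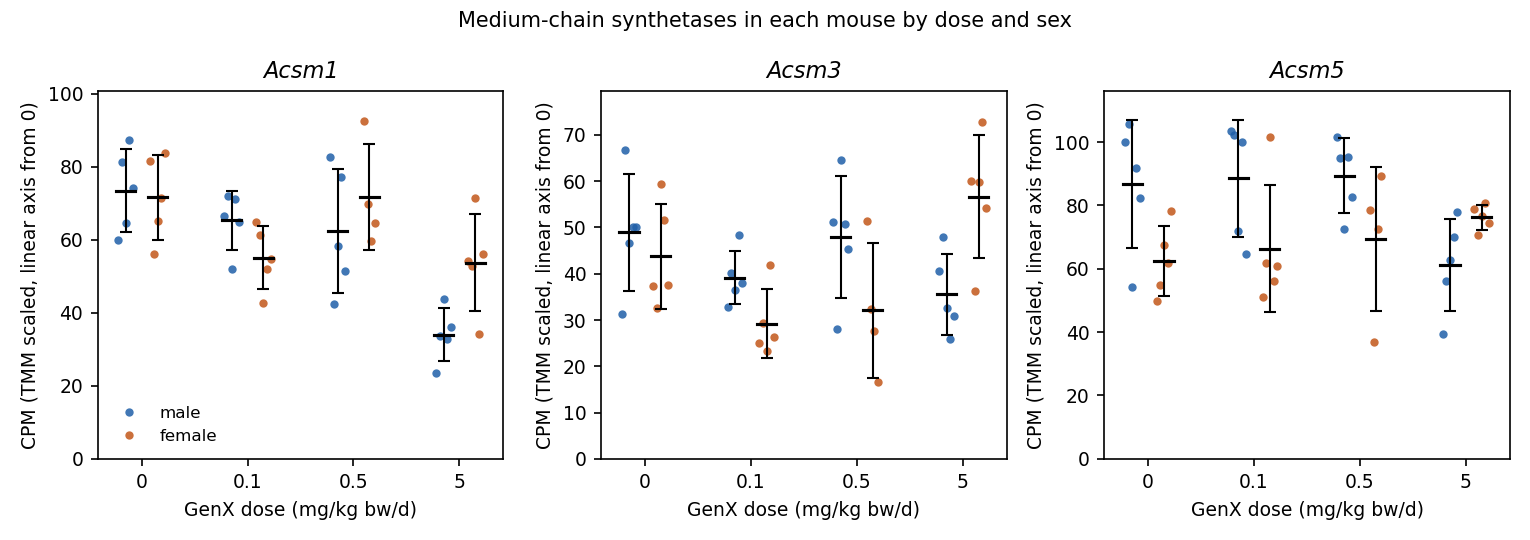
Levels of Acsm1, Acsm3 and Acsm5 in CPM in each mouse by dose in mg/kg per day and sex, with points for mice and bars for the group mean and SD. The 5 males at 5 mg/kg lie between 23.6 and 43.9 CPM for Acsm1, below all 5 male controls (60 to 87.3 CPM), while the groups overlap for Acsm3 and Acsm5.

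Acss2, the acetate enzyme, was counted on few molecules. Its first probe stood at 9.35, 20.1, 11.5, 13.1 and 3.61 CPM in control males and at 25.1, 29, 21.7, 10.9 and 24.9 CPM in males at 5 mg/kg. The dosed males overlapped with the controls in 1 mouse, and the difference of 0.95 ± 0.67 was not called (adjusted p = 0.527). Males at 0.5 mg/kg, at 4.64, 10.1, 7.1, 10.8 and 6.96 CPM, lay below all males at 5 mg/kg (1.49 ± 0.68, adjusted p = 0.301). Females at 5 mg/kg, at 21.7, 9.91, 3.19, 2.93 and 4.12 CPM, overlapped with controls at 6.21, 4.12, 2.8, 10.3 and 7.84 CPM (0.42, adjusted p = 1). On the second probe of Acss2 females at 5 mg/kg, at 21.7, 8.56, 6.45, 6.07 and 14.2 CPM, lay above all controls, at 3.74, 0, 0, 5.96 and 4.79 CPM, by 1.97 ± 1.29 (adjusted p = 0.57).

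**Figure D4:**
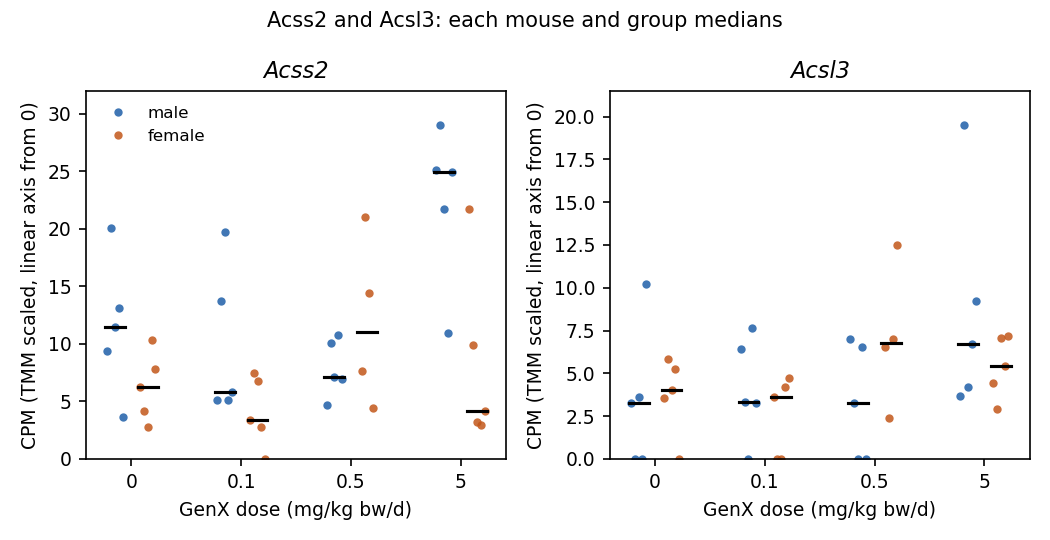
CPM of Acss2 and Acsl3 in each of the 39 mice by dose in mg/kg per day and sex, each point 1 mouse and each line a group median. For Acss2, 4 of 5 males at 5 mg/kg lie above all male controls, and Acsl3 stays between 0 and 19.5 CPM with overlapping groups.

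Counted over the 9 members, 3 were called in males at 5 mg/kg, with Acsl1 and Acsl5 higher and Acsm1 lower. Of all probes tested, 4.83% were called higher and 3.45% lower in this comparison. In females at 5 mg/kg 2 members were called, Acsl1 and Acsl5, both higher, where 1.83% of all probes were higher and 1.83% lower. At the middle dose Acsl1 alone was called in each sex, against 1.74% higher and 0.638% lower of all probes in males and 0.185% and 0.028% in females. At 0.1 mg/kg edgeR called none of the 9 in either sex. Unadjusted p under 0.05 was reached there by Acsl1 and Acsl4 in males and by Acsl4 and Acsm3 in females, and DESeq2 also called 0. For Acsl4 it rested on mouse 203 alone in males and mouse 255 alone in females, each with about 1 molecule, and shows no change of the gene. The background at this dose was 0.0336% higher and 0% lower in males and 0% both ways in females. The median log2 fold change of the 9 members at 5 mg/kg was 0.95 in males and 0.37 in females, beside 0.10 and −0.01 over all probes. Each median is the value of 1 gene that was not called, Acss2 in males and Acsm3 in females. The values of Acsl4 and Acsl6 entered these medians though no fold is given for them above. The medians therefore do not show a shift of the whole group. Over the 7 members with more than 3 reads in at least 1 of the 2 groups, with a group at 0 set to 3 reads, the female median was 0.42.

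From 0.5 to 5 mg/kg, 1 member rose (Acsl5) and 1 fell (Acsm1) in males, against 0.973% of all probes higher and 1.67% lower. In females 2 rose (Acsl1 and Acsl5), against 0.571% higher and 0.66% lower. Between control females and control males Acsl1 alone was called, lower in females, against 2.11% of all probes higher and 1.38% lower. No member's most counted probe was called by edgeR for a difference between the sexes in the effect of a dose. The share of all probes so called was 0% at 0.1, 0.274% at 0.5 and 1.04% at 5 mg/kg. At 5 mg/kg Acsm1, Acsm3 and Acsm5 had an unadjusted p under 0.05 there and DESeq2 called 1 member, Acsm5, and at 0.5 mg/kg Acsl1 had such a p and DESeq2 called 0. At 0.1 mg/kg no member had such a p and DESeq2 called 0. Comparisons within a sex share their control mice.

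**Figure D5:**
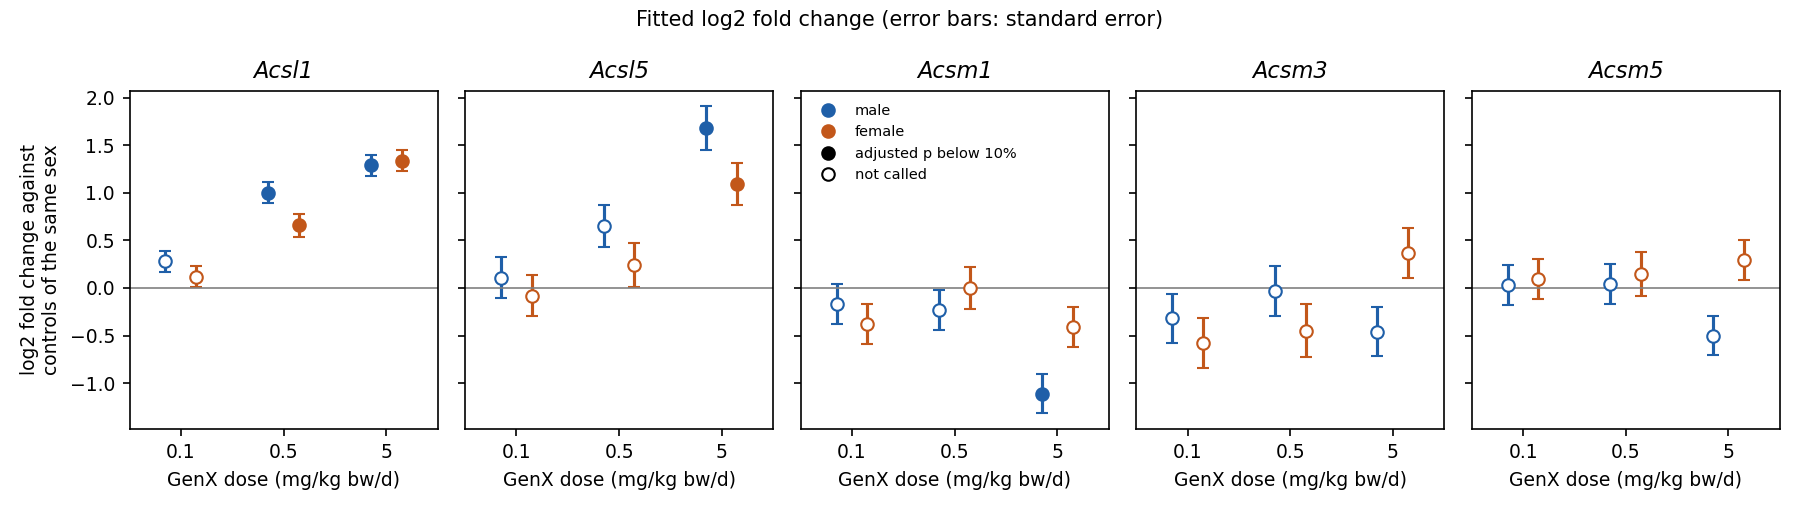
Fitted log2 fold change against controls of the same sex (vertical axis) for Acsl1, Acsl5, Acsm1, Acsm3 and Acsm5 at each dose in mg/kg per day (horizontal axis), with error bars for the SE and filled points where the adjusted p was below 10%. At 5 mg/kg Acsl1 (1.29 in males, 1.34 in females) and Acsl5 (1.68 and 1.09) lie above 0 and Acsm1 in males (−1.11) below it.

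Among other acyl-CoA synthetases, 15 of the 19 listed genes were tested. At 5 mg/kg 5 rose and 1 fell in males, and 4 rose and 2 fell in females. Acsf2, another medium-chain enzyme, rose in the males by 0.61 ± 0.18 (adjusted p = 0.0328), in the females by 1.36 ± 0.19 (adjusted p = 7.53e-07). Acss3, a mitochondrial propionate enzyme, rose in males by 1.77 ± 0.27 (adjusted p = 2.69e-06) and differed by 0.19 in females (adjusted p = 1). Its mean was 15.4 CPM in control males, 52.8 CPM in males at 5 mg/kg and 60.4 CPM in control females. For genes of this and the following lists, a difference between the sexes in the change was not tested. Suclg2, a subunit of succinyl-CoA synthetase, rose by 0.55 ± 0.13 (adjusted p = 0.00262) and 0.64 ± 0.13 (adjusted p = 0.000724). Those that fell were Slc27a5, which activates bile acids, in each sex and Acsm2, of the medium-chain family, in females, by 2.19 ± 0.71 on the log2 scale (adjusted p = 0.0957). In males Acsm2 differed by −1.90 ± 0.70 and was not called (adjusted p = 0.111). At the middle dose 1 of the 15, Acss3, rose in males (1.18, adjusted p = 0.00644).

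Of 25 genes that use, carry or split acyl-CoA, 17 rose and 3 fell in males at 5 mg/kg and 14 rose and 1 fell in females, with medians of 1.59 and 1.24 on the log2 scale. At the middle dose 11 of them rose in males and 3 did so in females. Ehhadh, the peroxisomal bifunctional enzyme, rose in the males by 5.69 ± 0.20 (adjusted p = 5.66e-28), in the females by 4.96 ± 0.19 (adjusted p = 6.21e-26). Acot1, a thioesterase that splits acyl-CoA and has close paralogs, rose by 4.79 ± 0.29 and 4.25 ± 0.28 (adjusted p = 3.37e-18 and 1.07e-16). Acadl, the long-chain dehydrogenase of mitochondria, rose by 2.33 ± 0.15 and 1.51 ± 0.15 (adjusted p = 7.7e-17 and 9.97e-11). Those that fell in males were Lpin1, a phosphatidate phosphatase (−2.16), and the glyceride-making enzymes Dgat2 and Agpat2 (−1.10 each), and Lpin1 fell in females too (−2.09).

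Of 17 genes of acetyl-CoA use and sterol-regulated lipid synthesis, the surroundings of Acss2, the highest dose raised 7 in males, 2 in females. Me1, malic enzyme, rose by 2.31 ± 0.31 (males, adjusted p = 2.86e-07) and 2.29 ± 0.31 (females, adjusted p = 7.53e-07). Scd1, stearoyl-CoA desaturase, rose by 2.24 ± 0.40 (adjusted p = 7.26e-05) and 2.15 ± 0.40 (adjusted p = 0.000305). Hmgcs1, of sterol synthesis, rose in males by 1.51 ± 0.29 (adjusted p = 0.000153) and differed by 0.63 in females (adjusted p = 0.258). Of a short list around glycine conjugation, 2 of 3 genes were tested, and 1 rose and 1 fell in males at 5 mg/kg. Glyat, the acyltransferase that joins acyl groups to glycine, rose in males by 0.92 ± 0.22 (adjusted p = 0.00264) and differed by −0.30 in females (adjusted p = 0.675). Gls2, liver glutaminase, which does not act on glycine and is also among the periportal markers above, fell by 1.21 ± 0.18 (males, adjusted p = 1.14e-06) and by 1.06 ± 0.18 (females, adjusted p = 3.44e-05).

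Over the 39 mice the levels of Acsl1 ran most alike to those of Fabp1, the liver fatty acid binding protein (Pearson r = 0.96 of log2 CPM), Retsat (0.94) and Ephx2 (0.93). Acsl5 ran most alike to Aldh9a1 (0.88), Slc16a1 (0.87) and Ehhadh (0.87), and Acsm1 to Cdo1 (0.80), Ces2a (0.79) and Hsd11b1 (0.76). The genes nearest to Acss2 were Sc5d (0.81), Idi1 (0.76) and Fdps (0.75), all of sterol synthesis. For Acsm3 and Acsm5 the highest values were lower, 0.58 each, with Myo6 and Jade1. For the sparsely counted Acsl3, Acsl4 and Acsl6 they were 0.58 (Cd9), 0.44 (Slmap) and 0.49 (Slc35b1). Between members r was 0.68 for Acsl1 and Acsl5, −0.51 for Acsl1 and Acsm1 and −0.49 for Acsl5 and Acsm1. These correlations describe mice that share dose groups and differ in depth, so they carry no p.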

How the data were processed

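TempO-Seq reads of 40 mouse liver libraries were counted per probe by the authors, who per the labels used bcl2fastq 2.17.1.14 and Bowtie, and the deposited counts are raw reads, with no molecular identifiers. The members and gene lists were chosen with earlier results of these data known. Each sex and dose was a group by the labels. The library of mouse 355 was left out for its depth, and 39 entered the fit. Probes were filtered with filterByExpr, normalised by TMM and tested with edgeR 4.0.16 (R 4.3.3, limma 3.58.1) quasi-likelihood in a model of the 8 groups, with Benjamini-Hochberg adjustment over 17877 probes and calls at 10%. The SE is the log2 fold change divided by the square root of F. Intervals use rounded values and the t quantile of the residual degrees of freedom, so they can differ slightly from the test. Each gene is given by its most counted probe, other probes serving as a check. The ratio of the Acsl1 probes was compared by exact permutation of mice between groups, outside the planned tests. All 9 members are named. The genes most like each were sought among those with a mean CPM of at least 10 (prior count 2). The first 3 are given for Acsl1, Acsl5, Acsm1 and Acss2, and the first alone for the other members. Of each further list the 3 with the smallest adjusted p at 5 mg/kg are named. Genes named for having fallen were chosen after their values were seen. Alternatives were DESeq2 1.42.0, its size factors, no filter, all 40 libraries, only the 2 groups compared, summed probes, estimated molecules and each mouse left out. As several reads came from each molecule, read totals overstate the precision of low values.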

Additional observations from a re-analysis of the deposited data

Results flagged for a closer look

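Chance alone sets about 1 in 20 groups apart by the test for a lone sample used here (Dixon's), and 7 of the 63 groups checked were set apart. Of these, 6 were single mice with reads of a gene that the rest of their group lacked. Such a group is always set apart by this test, so the rate of 1 in 20 does not apply to these 6. For Acsl4 these were mouse 203 at 2.69 CPM, mouse 303 at 1.94 CPM, mouse 405 at 1.48 CPM and mouse 255 at 4.03 CPM, and for Acsl6 mouse 105 at 2.62 CPM and mouse 201 at 3.71 CPM, each about 1 molecule. Mouse 253, a female at 0.1 mg/kg, had 101.5 CPM of Acsm5, and the next of its group 61.9 CPM.

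The second probe of Acsl1 differed between the sexes in its change at 5 mg/kg (male minus female change −0.86 ± 0.24, adjusted p = 0.0876), while the first probe did not reach the threshold (−0.04 ± 0.16, adjusted p = 1).

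For Acsm5 every male at 5 mg/kg lay below the mean of the male controls, on average by −25.6 CPM, and every female at 5 mg/kg above the mean of the female controls. The difference between the sexes was not called by edgeR (−0.79, adjusted p = 0.216), and was called by DESeq2 (−0.89, adjusted p = 0.0994) and with estimated molecules (−0.88, adjusted p = 0.0766). In the library of mouse 355, which entered no comparison, 0 members stood above all female controls. Acsl1 was at 367 CPM there against 1213 to 1626 in female controls on the same scale, and Acsm1, Acsm3, Acsm5 and Acss2 had no reads.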

How the results depend on the processing

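Over all alternatives, 1449 log2 fold changes of members were counted as keeping their direction and their side of the threshold, 54 changed sign, 16 gained and 14 lost a call. Of the 1449, 980 came from fits that left out 1 mouse and so shared nearly all their mice. Signs were compared after rounding, so a main value of 0.00 could not change sign. That was so for Acsm1 in females at 0.5 mg/kg, which ran from −0.15 to 0.08 with a mouse left out. Of the counts of members called, 204 stayed within 1.5 times and 15 moved. Acsl4, Acsl6 and the sparse probes of Acsm5 were left out of the comparison of folds, and no paired analysis was possible because replicate numbers are the mice's own and no group shares one.

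The members called in males at 0.5 mg/kg became 2 without the filter and ran from 1 to 2 with a mouse left out (2 without mouse 305, Acsl5 added). In males at 5 mg/kg they became 5 with estimated molecules. With all 40 libraries they became 0 in females at 0.5 mg/kg, 1 in males from 0.5 to 5 mg/kg and 0 between control sexes. From 0.5 to 5 mg/kg they became 4 in males with estimated molecules and ran from 1 to 2 in females with a mouse left out. For the sex difference at 5 mg/kg they became 1 with DESeq2 (Acsm5) and 2 with estimated molecules (Acsm1, Acsm5). With all 40 libraries Acsl1 lost its call in females at 0.5 mg/kg (0.38, adjusted p = 0.696) and between control sexes (adjusted p = 0.307). Acsm5 gained one in males at 5 mg/kg with DESeq2 (adjusted p = 0.0664), summed probes (0.0989), estimated molecules (0.0298) and without mouse 103 (0.0814), and Acsm3 in females from 0.5 to 5 mg/kg with DESeq2 (0.0614), estimated molecules (0.0679) and without mouse 351 (0.0548).

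None of the differences that changed sign was called. The other Acsl1 probe gave −0.05 (males) and −0.11 (females) at 0.1 mg/kg and −0.22 for the sex difference at 0.5 mg/kg. The second Acss2 probe gave 0.43 and 0.33 in males at 0.1 and 0.5 mg/kg, 0.15 in females at 0.1 mg/kg, 1.06 in females from 0.5 to 5 mg/kg and −0.95 for the sex difference at 5 mg/kg, and summed probes 0.05 in males at 0.1 mg/kg. Acsm5 in males at 0.5 mg/kg was −0.01 with DESeq2 and with its size factors and −0.03 with estimated molecules. With all 40 libraries Acsm5 was −0.19 in females at 0.5 mg/kg, and the sex difference there was 0.10 for Acsm1 and 0.23 for Acsm5. With a mouse left out, at 0.1 mg/kg in males Acsl3 ran from −0.07 to 1.26, Acsl5 from −0.03 to 0.25, Acsm5 from −0.10 to 0.12 and Acss2 from −0.63 to 0.07. At 0.5 mg/kg in males Acsl3 ran from −0.48 to 0.96, Acsm3 from −0.16 to 0.11 and Acsm5 from −0.09 to 0.12. In females at 0.1 mg/kg Acsl5 ran from −0.28 to 0.08 and Acsm5 from −0.12 to 0.18, and at 5 mg/kg Acss2 from −0.31 to 0.68. From 0.5 to 5 mg/kg in females Acsl3 ran from −0.68 to 0.03 and Acsm5 from −0.07 to 0.29. The sex difference ran at 0.1 mg/kg from −0.19 to 0.15 for Acsm5 and −0.01 to 0.74 for Acss2, at 0.5 mg/kg from −1.41 to 0.04 for Acsl3 and −0.31 to 0.04 for Acsm5, and at 5 mg/kg from −0.10 to 0.02 for Acsl1. Between control sexes Acsl3 ran from −0.19 to 1.12 and Acsm1 from −0.10 to 0.04. The cause of these changes was not tested.

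Over all probes DESeq2 called 878 in males at 0.5 mg/kg where edgeR called 311 higher and 114 lower, and 302 in the females where edgeR called 33 and 5. At the low dose it called 277 (males; edgeR 6) and 165 (females; edgeR 0). With all 40 libraries edgeR called 91 at the middle and 834 at the highest dose for males, 8 and 238 for females. Depth limits Acsl3, Acsl4, Acsl6 and Acss2 most.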
